A study of Homo sapiens with 12 samples.

Results

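The genes described here are 59 genes of coagulation, complement and acute-phase plasma proteins, chosen by name for what they encode, with no measured value in the rule, though earlier results of these data were known when the list was made. Of these, 58 had at least 1 probe on the array, 94 probes in all of 48803, and F2, the prothrombin gene, was not analysed here. RNA came from Huh7 cells, an established line derived from a hepatocellular carcinoma, transfected with 2 µg of empty vector (control, 6 arrays) or of a vector that silences TRPC1 (siTRPC1, 6 arrays). Both groups received 6 µl of FugeneHD and were collected after 48 h. The cells were a mixture in which transfected and untransfected cells were not separated, and in such RNA fewer cells carrying a transcript and less transcript per cell cannot be told apart. The labels do not say whether the 6 samples of a group came from separate cultures, so the p-values measure only the spread between these samples, which may be technical.

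Hepatocytes are the main source of the proteins of blood plasma. Coagulation is a cascade of serine proteases that ends in thrombin cleaving fibrinogen to fibrin, which plasmin later dissolves, while serpins and the protein C system hold the proteases in check. Complement is a second protease cascade of the plasma, which is started by antibodies, lectins or spontaneous C3 turnover, converges on C3 and ends in a pore built from C5 to C9. In inflammation, interleukin-6 and interleukin-1 raise the hepatic output of acute-phase proteins such as CRP, SAA1, fibrinogen and haptoglobin, through STAT3, C/EBP and NF-kB factors that bind the promoters of their genes.

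A probe was taken as detected on an array where its detection p, set against the negative control probes, was under 0.01, and it was tested where this held on at least 6 of 12 arrays. By this rule 54 of the 94 plasma protein probes were tested (57.4%), against 12902 of all 48803 probes (26.4%). These shares are of unlike sets, since the 94 were found by gene symbol and 20692 of the 48803 have none. The 54 tested probes stood for 42 of the 58 genes (72.4%). The same share over all named genes is not given here. Of the 54 probes, 53 were detected on all 12 arrays, and the probe of SERPINA10, the inhibitor of factor Xa that works with protein Z, on 6. Of the 40 probes not tested, 36 were detected on 0 arrays and 4 on 1 to 5.

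**Figure D1:**
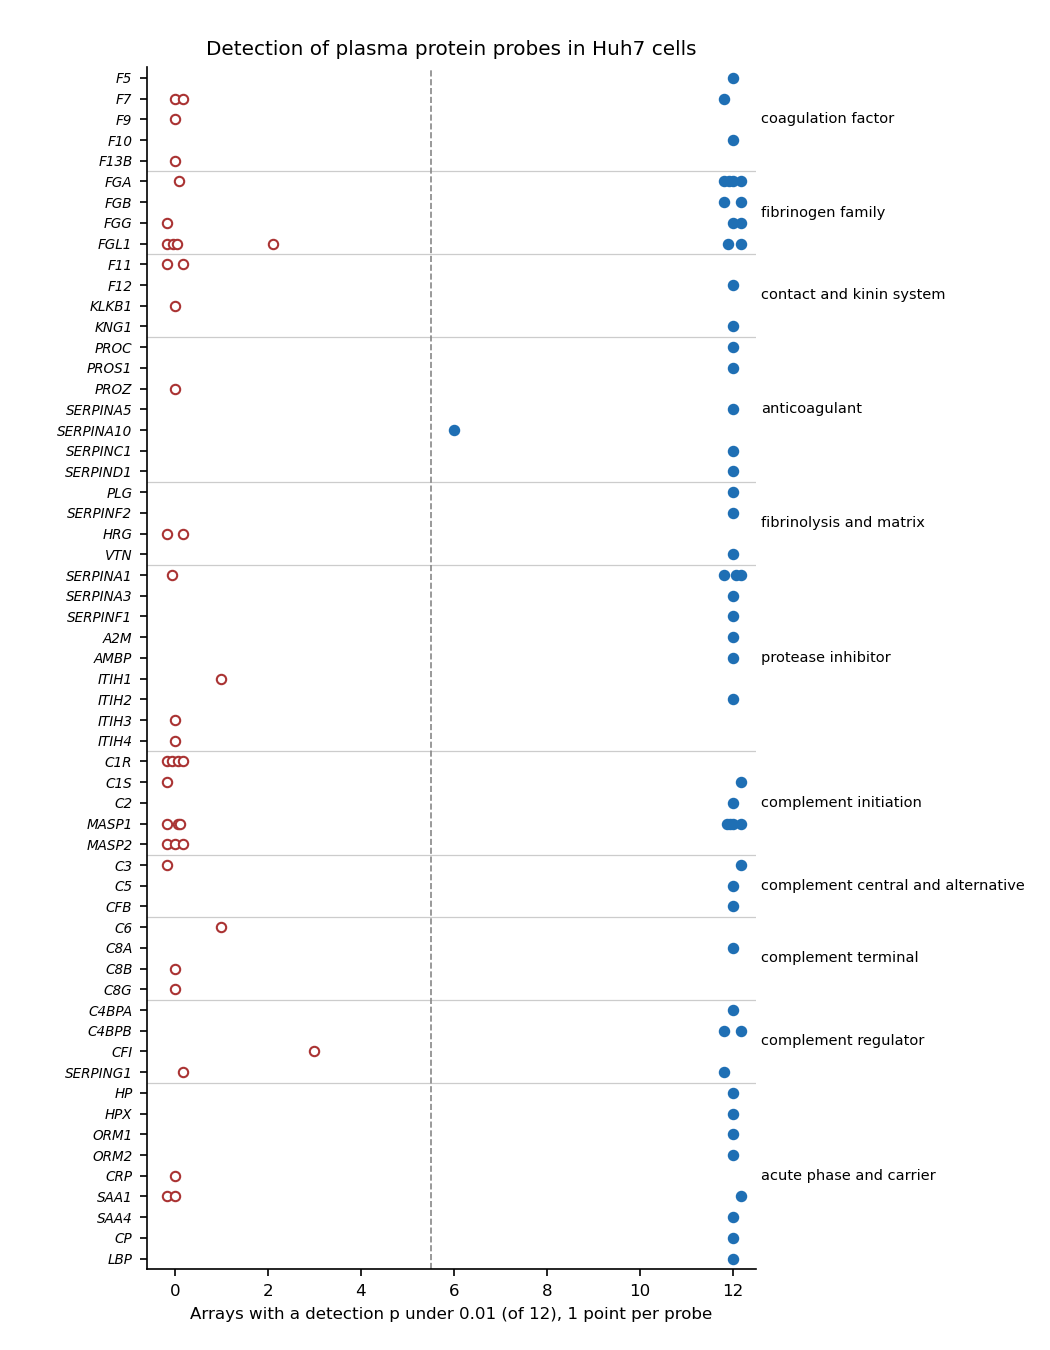
Number of arrays, of 12, on which each probe of the plasma protein genes had a detection p under 0.01, 1 point per probe and genes ordered by role, with filled points for tested probes, open points for the rest, several probes of a gene spread sideways for legibility, and a dashed line at the limit for testing (at least 6 arrays). Apart from the probe of SERPINA10 at 6, tested probes sit at 12, and probes not tested sit at 0 to 3.

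The 16 genes without a detected probe came from all but the fibrinogen and the central complement groups. In coagulation they were F9, the factor whose loss causes haemophilia B, and F13B, the carrier subunit of the fibrin-crosslinking factor XIII. In the contact system, which starts clotting at surfaces and releases bradykinin, they were F11 and KLKB1, the gene of plasma prekallikrein. PROZ, which encodes protein Z, and HRG, a histidine-rich plasma glycoprotein, were not detected either. Nor were ITIH1, ITIH3 and ITIH4, heavy chains of the inter-alpha-trypsin inhibitor family, in contrast to ITIH2, whose probe was detected on 12 arrays. In complement the undetected genes were C1R and MASP2, proteases of the classical and lectin pathways, C6, C8B and C8G of the terminal pore, and CFI, the protease that inactivates C3b, with a probe detected on 3 arrays. CRP, the pentraxin by which inflammation is commonly monitored, was detected on 0 arrays.

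Several of the genes lie next to each other in the genome, and neighbours were not always detected together. FGB, FGA and FGG, which adjoin on chromosome 4 and encode the chains of fibrinogen, were all detected, as were C4BPB with C4BPA, ORM1 with ORM2 and SERPINF2 with SERPINF1. KLKB1 and F11, also neighbours on chromosome 4, were both undetected, and so were ITIH1, ITIH3 and ITIH4 on chromosome 3. In 3 adjoining pairs 1 gene was detected and the other was not, namely C1S without C1R, C8A without C8B and KNG1 without HRG. For genes with 1 probe, 30 of 42 were detected. Of the 16 genes with several probes, 10 had some probes above background and some not, 2 had all above and 4 had none. The 10 were F7, FGA, FGG, FGL1, SERPINA1, C1S, MASP1, C3, SERPING1 and SAA1, whose differences are given for the tested probes only. Since these detected genes also had probes at background, an undetected probe does not show that its gene is silent. Whether the undetected genes are transcribed was not tested.

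The promoters of 44 of the 59 genes were matched by symbol in RefSeq (GRCh38.p14), 28 of detected genes and 15 of undetected ones besides F2. In the 250 bases before the start, 4 motifs were searched on both strands. They were GTTAATNNT, which HNF1, a hepatocyte factor, binds, TTGCNNAA for C/EBP, TTCNNNGAA for STAT factors and CTGGGAA, called the type II acute-phase element. The HNF1 letters were in 7 of the 28 detected genes (FGA, FGB, PLG, SERPINA1, C5, C4BPA and SAA4) and in 1 of the 15 undetected ones (F13B), against 2.65% of all 27305 genes and 2.16% of all 35116 promoters in the table. C/EBP letters were in 8 of 28 and 3 of 15 (11% of all genes, 9.05% of promoters), STAT letters in 7 of 28 and 5 of 15 (8.09% and 6.57%), and the type II element in 6 of 28 and 3 of 15 (11.1% and 9.15%). A gene with several starts counts as holding a motif where any of its promoters does, and a match is a run of letters and not a measured binding site. STAT and type II matches can share letters and were counted separately.

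Promoters are shown for the fibrinogen genes, which were all detected, for SAA4 and HPX, named among the acute-phase genes for their differences, and for CRP, which was not detected. Each is the 250 bases before the first listed start, 5′ to 3′ on the strand of the gene, with matches to the 4 motifs in capitals.
FGA, chr4:154590743-154590992, minus strand: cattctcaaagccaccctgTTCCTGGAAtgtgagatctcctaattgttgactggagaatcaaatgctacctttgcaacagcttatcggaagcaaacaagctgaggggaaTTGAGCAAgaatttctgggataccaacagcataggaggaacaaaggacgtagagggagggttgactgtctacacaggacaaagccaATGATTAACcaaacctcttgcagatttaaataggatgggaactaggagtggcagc
FGB, chr4:154562730-154562979, plus strand: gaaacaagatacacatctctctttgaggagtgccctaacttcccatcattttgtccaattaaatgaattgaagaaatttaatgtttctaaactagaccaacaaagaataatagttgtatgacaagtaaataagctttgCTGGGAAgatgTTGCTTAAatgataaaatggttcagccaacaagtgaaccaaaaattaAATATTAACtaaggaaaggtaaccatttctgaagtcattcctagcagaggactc
FGG, chr4:154612657-154612906, minus strand: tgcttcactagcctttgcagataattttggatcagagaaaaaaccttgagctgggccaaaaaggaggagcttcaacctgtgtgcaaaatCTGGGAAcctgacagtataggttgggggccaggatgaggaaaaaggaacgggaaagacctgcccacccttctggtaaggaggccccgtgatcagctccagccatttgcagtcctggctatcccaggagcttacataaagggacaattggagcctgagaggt
SAA4, chr11:18236803-18237052, minus strand: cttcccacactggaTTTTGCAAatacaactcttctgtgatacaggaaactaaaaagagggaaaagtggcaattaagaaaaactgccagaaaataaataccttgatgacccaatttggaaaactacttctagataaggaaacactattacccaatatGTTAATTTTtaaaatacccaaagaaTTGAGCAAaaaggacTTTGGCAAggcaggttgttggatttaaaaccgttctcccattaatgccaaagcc
HPX, chr11:6440988-6441237, minus strand: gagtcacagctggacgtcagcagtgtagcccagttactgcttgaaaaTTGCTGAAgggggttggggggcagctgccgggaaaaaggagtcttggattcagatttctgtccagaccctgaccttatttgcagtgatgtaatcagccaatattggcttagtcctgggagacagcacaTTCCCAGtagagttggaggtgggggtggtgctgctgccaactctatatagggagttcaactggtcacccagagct
CRP, chr1:159714590-159714839, minus strand: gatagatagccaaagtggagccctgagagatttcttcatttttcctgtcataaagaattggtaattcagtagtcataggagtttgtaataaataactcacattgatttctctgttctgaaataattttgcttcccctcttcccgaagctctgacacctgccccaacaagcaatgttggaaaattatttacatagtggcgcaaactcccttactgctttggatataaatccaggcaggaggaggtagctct
In FGA the HNF1 match lies at bases -55 to -47 from the start, and in FGB at -54 to -46. Both also hold a C/EBP match farther upstream, at -141 to -134 in FGA and at -101 to -94 in FGB, where it follows the type II element at -112 to -106. FGG holds the type II element alone, at -161 to -155. SAA4 holds an HNF1 match at -94 to -86 and 3 C/EBP matches. HPX holds a C/EBP match at -203 to -196 and the type II element, read on the other strand, at -75 to -69. The CRP window holds none of the 4.

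TRPC1, the silenced gene, gave log2 values of 8.74 to 9.05 in control cells (median 8.78) and of 8.49 to 8.85 in siTRPC1 cells (median 8.59). Of the 6 siTRPC1 arrays, 5 lay below every control array and 1 lay inside the control range. The difference was -0.19 on the log2 scale (SE 0.09), or -12.1%, with an adjusted p of 0.302 over all tested probes and an exact two-sided permutation p of 0.0303. The array therefore placed most but not all siTRPC1 arrays below control. The paper also reported lower TRPC1 by PCR and lower protein by western blot, neither of which was measured here. The permutation test treats the 12 arrays as independent. Within its group, however, each array was most similar to one adjoining by number (1 and 2, 3 and 4, 5 and 6). The labels give no layout of the arrays, so adjoining refers to these numbers only. With adjoining arrays treated as related, the adjusted p of TRPC1 was 0.558. Mean intensity per array was lowest in control arrays 2 and 1 (457.5 and 479.7) and lay between 565.9 and 687.9 in the other 10. Of the markers of liver cells with a probe, 13 of 13 were tested, whereas 1 of 6 endothelial markers (PECAM1), 2 of 7 macrophage markers (CD68 and CD14) and 2 of 7 stellate cell markers (COL1A2 and PDGFRB) were, and VWF, CDH5, KDR, CD163, PTPRC, ACTA2 and COL1A1 were detected on 0 arrays.

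No plasma protein probe passed the test of siTRPC1 against control. Called were 0 of 54 at an adjusted p under 0.05, where the array as a whole gave 209 calls among 12902 tested probes (1.62%), of which 124 were higher (0.961%) and 85 lower (0.659%). The smallest adjusted p among them was 0.0622, of a SERPINA1 probe. At an unadjusted p under 0.05, 11 of the 54 were higher (20.4%) and 2 were lower (3.70%), where 9.29% of all tested probes were higher and 7.82% lower. Differences were above 0 in 36 of 54 (66.7%, against 48.8% of all), with a median of 0.07 against -0.0045 over all tested probes. These shares are a description without a test, since the genes were measured in the same libraries and 7 of them by several tested probes. For the brightest probe of each gene, 29 of 42 genes were above control and 13 below, with a median of 0.10.

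The precision of single differences is given by their intervals, which are not adjusted for the number of probes tested. A probe whose interval excluded 0 could therefore still fail the test, as PLG did. The 95% interval of a plasma protein probe had a median half-width of 0.18 and a range of 0.11 to 0.45 on the log2 scale. For 47 of the 54 probes the whole interval lay between -0.5 and 0.5. The spread of single probes within groups was near that of the array, with a median SD of 0.17 against 0.16.

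**Figure D2:**
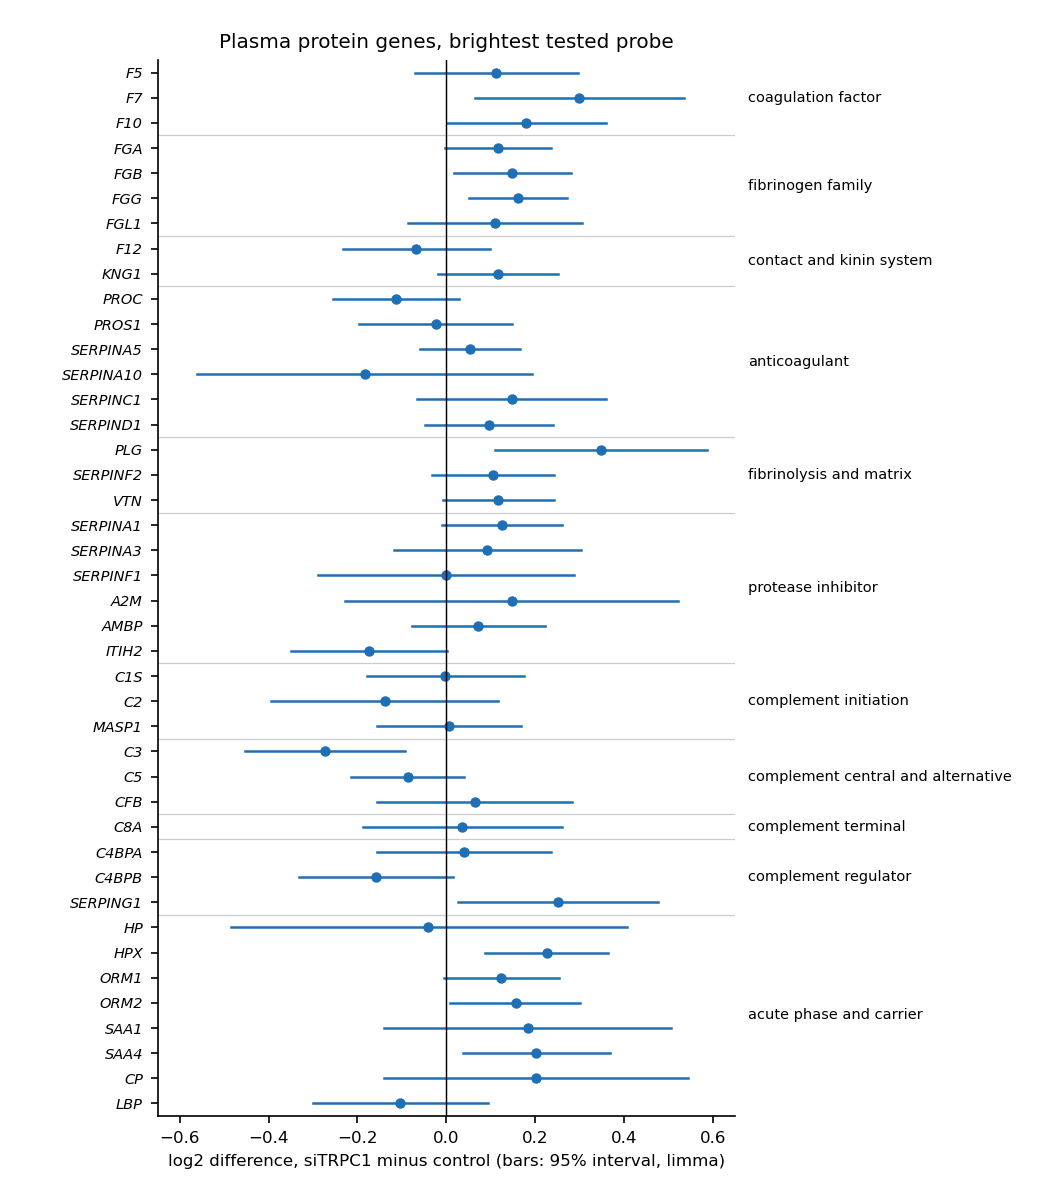
Log2 difference, siTRPC1 minus control, of the brightest tested probe of each of the 42 detected plasma protein genes, ordered by role, with points for the difference and bars for its 95% interval from limma over 12 arrays. Points for 29 genes lie above 0 and for 13 below, and the largest are PLG at 0.35 and C3 at -0.27. The intervals are not adjusted for the number of probes tested.

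Among coagulation factors the 3 detected genes were all above control. F7 encodes the protease that, bound to tissue factor, starts coagulation, and its values were 7.67 to 8.01 in control cells (median 7.80) and 7.86 to 8.37 in siTRPC1 cells (median 8.13). Of the siTRPC1 arrays, 5 lay above every control array, and array 3 lay within the control range. The difference was 0.30 (SE 0.11, adjusted p = 0.174, exact two-sided permutation p = 0.0108), so it did not pass. Treating adjoining arrays as related gave an adjusted p of 0.43. F10, the protease that converts prothrombin, differed by 0.18 (adjusted p = 0.291) and F5, its cofactor, by 0.11 (adjusted p = 0.549).

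The fibrinogen family lay above control in all 4 genes by their brightest probes, between 0.11 and 0.16, and none was called. FGG, the gamma chain, gave 13.27 to 13.44 in control cells (median 13.32) and 13.38 to 13.59 in siTRPC1 cells (median 13.50) on its brightest probe. All siTRPC1 arrays but array 4 lay above the highest control array. The difference was 0.16 (SE 0.05, adjusted p = 0.117). The other tested FGG probe gave -0.09 (adjusted p = 0.696) with all arrays and 0.07 (adjusted p = 0.733) without control arrays 1 and 2, where it read 11.30 and 11.21 against 10.58 to 11.04 in the other controls. The 4 FGA probes differed by 0.03 to 0.12 and the 2 FGB probes by 0.05 and 0.15. FGL1, a secreted relative of fibrinogen, gave -0.01 and 0.11.

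In the contact system KNG1, the kininogen from which bradykinin is cut, was at 0.12 and F12, the factor that starts the contact pathway, at -0.07, or at 0.04 without control arrays 1 and 2. Of the anticoagulants, the detected genes split evenly, 3 above control and 3 below. PROC encodes protein C, which inactivates factors V and VIII, and gave 10.26 to 10.44 in control cells (median 10.36) and 10.03 to 10.30 in siTRPC1 cells (median 10.28). Groups overlapped, with 2 siTRPC1 arrays below all controls. The difference was -0.11 (SE 0.07, adjusted p = 0.407). PROS1, its cofactor protein S, differed by -0.02 (0.12 without control arrays 1 and 2), SERPINC1, antithrombin, by 0.15, SERPIND1, heparin cofactor II, by 0.10 and SERPINA5, the protein C inhibitor, by 0.05, with adjusted p of 0.485 or more. SERPINA10 gave 6.60 to 7.50 in control cells (median 6.95) and 6.46 to 7.23 in siTRPC1 cells (median 6.80). Its groups overlapped almost wholly, with a difference of -0.18 (SE 0.18, adjusted p = 0.654).

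PLG, the gene of plasminogen, the precursor of the fibrin-dissolving protease plasmin, had the largest difference among the brightest probes. Its values were 9.09 to 9.84 in control cells (median 9.42) and 9.50 to 10.09 in siTRPC1 cells (median 9.89). Control arrays 1 and 2 were the highest of the controls, at 9.84 and 9.69, and siTRPC1 arrays 1 and 2 the lowest of the silenced, at 9.50 and 9.56, so the groups overlapped through the arrays numbered 1 and 2. The difference was 0.35 (SE 0.12, a change of 27.3%), with an adjusted p of 0.117 and an exact two-sided permutation p of 0.0411. Treating adjoining arrays as related gave an adjusted p of 0.255. Without control arrays 1 and 2 the difference was 0.50 with an adjusted p of 0.0115, past the test. SERPINF2, the plasmin inhibitor, and VTN, vitronectin, a matrix protein that carries PAI-1, were at 0.11 and 0.12 (adjusted p = 0.428 and 0.327).

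**Figure D3:**
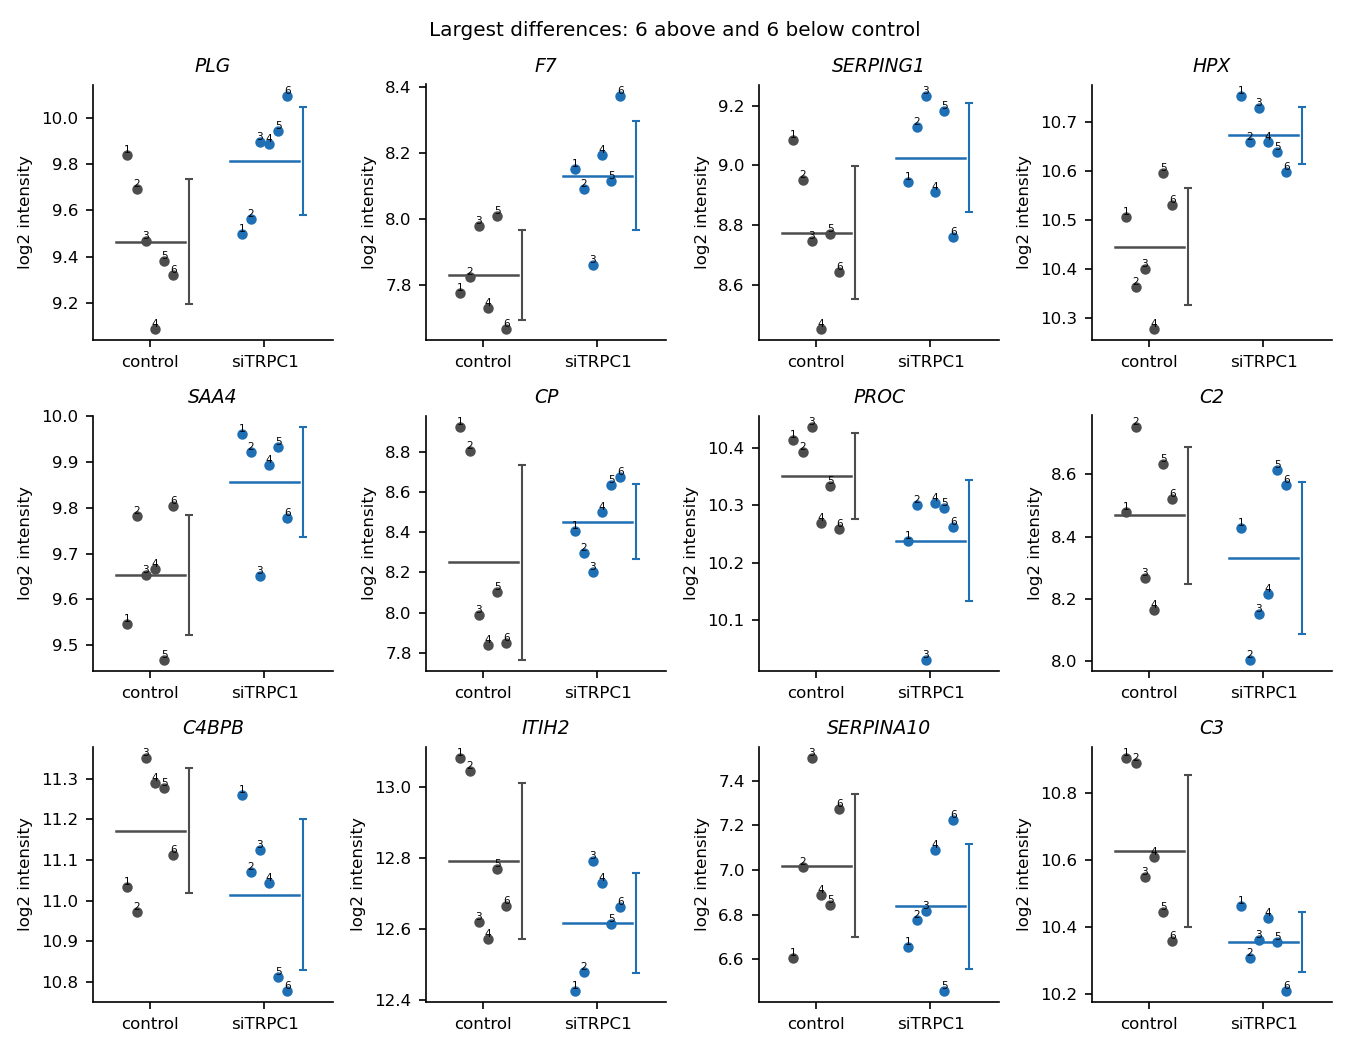
Normalized log2 intensity of the 6 plasma protein genes with the largest differences above control and the 6 with the largest below, brightest tested probe, by array (numbers) in control and siTRPC1 cells, with the horizontal line for the mean and the bar for its SD (n = 6), each panel on its own axis. Only HPX has groups that do not overlap, and in PLG, SERPING1, C3, CP and ITIH2 control arrays 1 and 2 lie above the other controls.

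In the group of protease inhibitors and related proteins, SERPINA1, alpha-1 antitrypsin, the main inhibitor of neutrophil elastase, had 3 tested probes. Their differences were 0.11, 0.13 and 0.41. The probe with 0.41 gave 7.79 to 8.33 in control cells (median 8.21) and 8.39 to 8.76 in siTRPC1 cells (median 8.51). All 6 siTRPC1 arrays lay above all controls, of which arrays 2 and 1 were lowest. Its adjusted p was 0.0622 (SE 0.11) and its exact two-sided permutation p 0.00216, the smallest that 6 against 6 arrays, taken as independent, allow. Treating adjoining arrays as related gave an adjusted p of 0.198. Without control arrays 1 and 2 its difference was 0.29 (adjusted p = 0.203). Probes whose groups did not overlap, with siTRPC1 higher, were 2 of 54, this one and that of HPX, against 1.13% of all tested probes, and 0 of 54 were wholly lower, against 1.02%. ITIH2, a heavy chain that binds hyaluronan, gave 12.57 to 13.08 in control cells (median 12.71) and 12.43 to 12.79 in siTRPC1 cells (median 12.64). The groups overlapped, and the difference was -0.17 (SE 0.08, adjusted p = 0.295), or -0.04 without control arrays 1 and 2. SERPINA3, antichymotrypsin, AMBP, from which alpha-1 microglobulin and bikunin are cut, and SERPINF1, pigment epithelium-derived factor, differed by 0.09, 0.07 and 0.00. These became 0.24, 0.16 and 0.25 without control arrays 1 and 2 (adjusted p of 0.176 or more).

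Of the genes that start complement, C2, the protease subunit of the classical C3 convertase, gave 8.17 to 8.75 in control cells (median 8.50) and 8.00 to 8.61 in siTRPC1 cells (median 8.32). Groups overlapped widely, with a difference of -0.14 (SE 0.12, adjusted p = 0.609). C1S, a protease of the C1 complex, showed no difference to the second decimal (0.00, SE 0.08). MASP1, the gene of a lectin-pathway protease, had 4 tested probes at -0.18, -0.02, 0.01 and 0.05. On the first of them 5 siTRPC1 arrays lay below all controls (adjusted p = 0.218). The second and the last of them turned without control arrays 1 and 2, to 0.08 and -0.08. The tested MASP1 probes are annotated to different transcripts of the gene, and a probe annotated to a further transcript was detected on 0 arrays. Which protein form each probe reads was not tested, so no difference is assigned to the protease.

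C3, the protein on which all complement pathways converge, had the largest difference below control. Its values were 10.36 to 10.90 in control cells (median 10.58) and 10.21 to 10.46 in siTRPC1 cells (median 10.36). The highest controls were arrays 1 and 2, at 10.90 and 10.89, and 3 siTRPC1 arrays lay below all controls. The difference was -0.27 (SE 0.09, a change of -17.2%), with an adjusted p of 0.108 and an exact two-sided permutation p of 0.0173. Treating adjoining arrays as related gave an adjusted p of 0.252. Without control arrays 1 and 2 the difference was -0.14 (adjusted p = 0.377). C5, whose cleavage starts the terminal pore, was at -0.09 and CFB, the protease of the alternative pathway, at 0.06. In the terminal pore C8A, the alpha chain of C8, was at 0.04.

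Among complement regulators SERPING1, the C1 inhibitor, gave 8.45 to 9.08 in control cells (median 8.76) and 8.76 to 9.23 in siTRPC1 cells (median 9.04). The groups overlapped, with 3 siTRPC1 arrays above all controls. Control arrays 1 and 2 were the highest controls, at 9.08 and 8.95. The difference was 0.25 (SE 0.11, adjusted p = 0.23), and 0.37 (adjusted p = 0.0692) without those arrays. C4BPB, the beta chain of the C4b-binding protein, gave 10.97 to 11.35 in control cells (median 11.20) and 10.78 to 11.26 in siTRPC1 cells (median 11.06). Here siTRPC1 arrays 5 and 6 lay below all controls and the rest overlapped, with a difference of -0.16 (SE 0.08, adjusted p = 0.341) and of -0.11 on the second probe. Control arrays 1 and 2 were the lowest controls on both probes. Without them the differences were -0.24 and -0.23 (adjusted p = 0.134 and 0.254). C4BPA, the alpha chain encoded next to it, differed by 0.04.

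Of the acute-phase and carrier proteins, 6 of 8 detected genes were above control. HPX encodes hemopexin, which binds free haem, and gave 10.28 to 10.60 in control cells (median 10.45) and 10.60 to 10.75 in siTRPC1 cells (median 10.66). All siTRPC1 arrays lay above all controls, though siTRPC1 array 6 and control array 5 nearly touched. The difference was 0.23 (SE 0.07), with an adjusted p of 0.0824 and an exact two-sided permutation p of 0.00216. Treating adjoining arrays as related gave an adjusted p of 0.252. SAA4, the constitutively made serum amyloid A, gave 9.47 to 9.80 in control cells (median 9.66) and 9.65 to 9.96 in siTRPC1 cells (median 9.91). Of its siTRPC1 arrays 4 lay above all controls, and the difference was 0.20 (SE 0.08, adjusted p = 0.186). SAA1, the inducible form, differed by 0.18 with a wide error (SE 0.16, adjusted p = 0.589), its siTRPC1 arrays spreading from 7.05 to 7.94.

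ORM1 and ORM2, near-identical genes of the acid glycoprotein orosomucoid, differed by 0.12 and 0.16 (adjusted p = 0.317 and 0.26). Whether their probes, or those of SAA1 and HP, also bind a related transcript was not tested. LBP, the lipopolysaccharide-binding protein, was at -0.10, with 3 siTRPC1 arrays below all controls. CP, ceruloplasmin, the copper-carrying ferroxidase, gave 7.84 to 8.93 in control cells (median 8.04) and 8.20 to 8.68 in siTRPC1 cells (median 8.46). The siTRPC1 arrays lay between the control arrays 1 and 2 and the 4 other controls. The difference was 0.20 (SE 0.17, adjusted p = 0.569) with all arrays and 0.51 (adjusted p = 0.0267) without those 2.

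Control arrays 1 and 2, the dimmest of the 12, stood apart from the other controls in many of these genes. Both lay above all 4 other controls in 22 of the 54 plasma protein probes (40.7%, against 19.4% of all tested probes), and both lay below them in 7 (13%, against 21%). The gap was widest for A2M, alpha-2 macroglobulin, a trap for proteases of many kinds, at 9.70 and 9.56 in these arrays, 8.47 to 8.60 in the others and 8.76 to 9.36 in siTRPC1 cells. HP, haptoglobin, which binds free haemoglobin, was at 9.09 and 9.35 against 7.86 to 8.32, with siTRPC1 arrays from 7.87 to 8.95. SERPINF1 was at 9.79 and 9.89 against 8.73 to 9.32. The part of the lower signal of these arrays in these values was not tested.

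**Figure D4:**
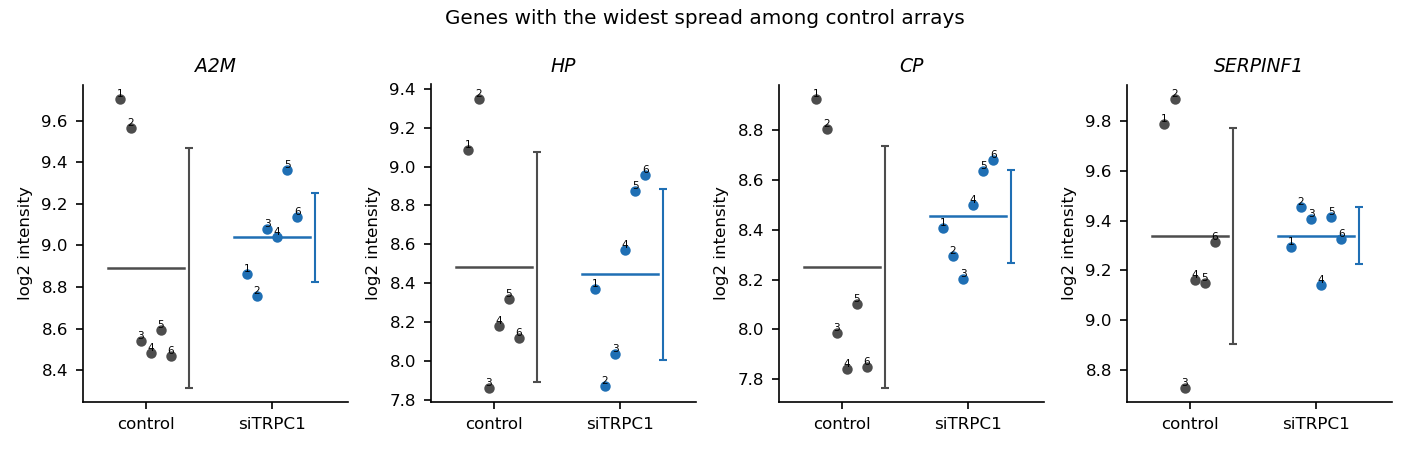
Normalized log2 intensity of A2M, HP, CP and SERPINF1 by array (numbers) in control and siTRPC1 cells, with the line for the mean and the bar for its SD (n = 6), each panel on its own axis. Control arrays 1 and 2 lie above the other 4 controls in all 4 panels, and the siTRPC1 arrays of A2M and CP lie between them.

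With those 2 arrays left out, 3 of 53 plasma protein probes passed the test, all higher in siTRPC1 cells, and 194 of all 12705 tested probes did, 112 higher and 82 lower. They were A2M at 0.52 (adjusted p = 0.0114), CP and PLG. In each of these 3 the arrays left out were the highest controls, so leaving them out lowered the control mean and raised the difference. The siTRPC1 arrays 1 and 2 were kept. The differences of A2M and HP with all arrays were 0.15 (SE 0.18, adjusted p = 0.727) and -0.04 (SE 0.22, adjusted p = 0.948), and that of HP without those 2 was 0.33 (SE 0.17, adjusted p = 0.351). By array, the median deviation of the 54 probes from their means ran from -0.13 to 0.06 in control cells, where arrays 1 and 2 were the 2 above 0, and from -0.03 to 0.09 in siTRPC1 cells, where arrays 4, 5 and 6 were the 3 highest. The groups overlapped in this measure, and over all tested probes it stayed between -0.007 and 0.007.

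**Figure D5:**
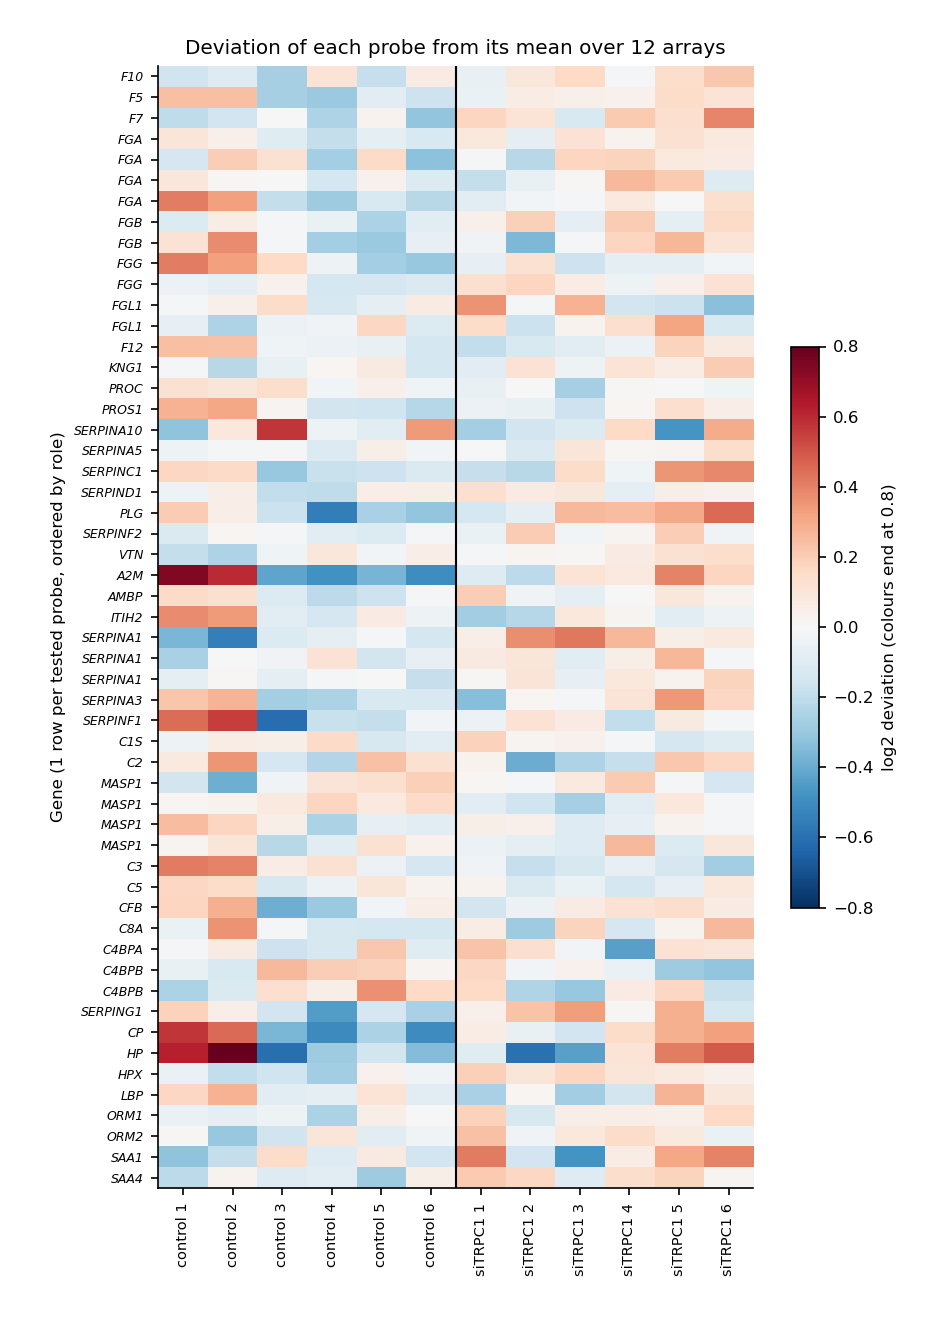
Deviation of each of the 54 tested plasma protein probes from its mean over the 12 arrays, in log2 units, with 1 row per probe ordered by role and 1 column per array, and colours that end at 0.8 in either direction. Control arrays 1 and 2 are red in A2M, CP, HP and SERPINF1 where controls 3 to 6 are mostly blue.

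Other genes of the same pathways were read in 4 lists. Of 24 further coagulation and fibrinolysis genes with a probe, 14 were tested and 0 were called. HABP2, a plasma protease that can activate factor VII, gave 7.43 to 7.63 in control cells and 6.59 to 7.32 in siTRPC1 cells, with no overlap, a difference of -0.46 and an adjusted p of 0.108. Its probe was detected on 6 control and 4 siTRPC1 arrays, so some of its values are at background. Of 23 further complement genes 3 were tested (CFD, MBL2 and CD55) and 0 called, with C4A, C7 and C9 detected on 0 arrays. In acute-phase signalling 13 of 17 genes were tested and 0 called. STAT3, which carries the interleukin-6 signal, was at 0.17 (adjusted p = 0.171), CEBPB at -0.14 (adjusted p = 0.269) and RELA, the p65 subunit of NF-kB, at -0.33 (adjusted p = 0.166).

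Of 13 other plasma proteins with a probe, 8 were tested and 1 was called. TTR, transthyretin, the carrier of thyroxine and of retinol-binding protein, gave 14.24 to 14.50 in control cells (median 14.42) and 14.58 to 14.72 in siTRPC1 cells (median 14.63). All siTRPC1 arrays lay above all controls, and TTR rose by 0.24 (SE 0.05, a change of 18.4%, adjusted p = 0.0179). The call was lost when adjoining arrays were treated as related (adjusted p = 0.0955), with median centring, and without control array 1. HAMP, which encodes hepcidin, the hormone that limits iron uptake, gave 7.13 to 8.05 in control cells and 6.66 to 7.39 in siTRPC1 cells, a difference of -0.63 (SE 0.18, adjusted p = 0.0772). Its probe was detected on 6 control and 3 siTRPC1 arrays, so some of its values are at background. Control arrays 1 and 2 were its 2 highest, at 8.05 and 7.97.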

How the data were processed

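RNA of 6 control and 6 siTRPC1 samples was measured on 12 Illumina bead arrays. The deposited intensity values are probe signals, linear and not normalized between arrays, from which the authors had subtracted background. Each carries a deposited detection p-value against the negative control probes. A second deposited table holds the authors' log2 values, made with lumi (version not given in the sources used here) and quantile-normalized. It served as an alternative and could be rebuilt from the intensities to within 0.014.

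For the main values, limma 3.58.1 (R 4.3.3) was run on the intensities, with neqc for background (normexp, offset 16) and quantile normalization, then lmFit and eBayes with trend. Group was the only term. A probe entered the test if its detection p was below 0.01 on 6 or more arrays, and p-values were adjusted over all 12902 such probes (Benjamini-Hochberg, 5%). Adjusted p in the text is limma's. Exact two-sided permutation tests ran over 924 ways of dividing the arrays and allow no p below 0.00216. The offset compresses differences of dim probes. Levels of different probes were not compared. The number of arrays limits the precision.

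Gene names came from the platform annotation, in which 28098 probes have 1 symbol, 13 several and 20692 none. Members and lists were chosen with earlier results of these data known. Per-array values are given for called genes, for the 6 largest differences in each direction among brightest probes, and for genes whose tested probes oppose each other by over 0.3 (none did). SERPINA1, FGG, A2M, HP and SERPINF1, and HABP2, HAMP, STAT3, CEBPB and RELA in the other lists, were added after their values were seen. The study analysed 10 arrays, without control 5 and siTRPC1 5, which was an alternative here, along with other values, offsets, normalization, filters, weights, blocks, the methods' t-test and left-out arrays. The study called its genes by Rank Product analysis, which was not run here. The methods' t-test is the unpaired Student's test that the paper names for comparing groups. The limma fit was tested on simulated data. No slide or batch is stated. Other tools were numpy 2.4.6, scipy 1.17.1, pandas 2.3.3 and matplotlib 3.10.9.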

Additional observations from a re-analysis of the deposited data

Results flagged for a closer look

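In 3 of 110 groups of 6 arrays examined (the 54 tested plasma protein probes and TRPC1, each in control and siTRPC1 cells), 1 array lay far from the other 5, and chance alone would mark about 1 in 20 such groups. PROC was lowest in siTRPC1 array 3, at 10.03, where the other 5 arrays lay between 10.24 and 10.30. C8A was highest in control array 2, at 9.14, against 8.63 to 8.77 in the other controls. TRPC1 was highest in control array 5, at 9.05, against 8.74 to 8.82, and this is 1 of the 2 arrays that the study left out.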

How the results depend on the processing

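No plasma protein probe was called with all 12 arrays, and the count stayed at 0 in 21 of 25 alternatives. It was 1 with array weights (PLG, 0.43, adjusted p = 0.0328), 1 with median centring in place of quantile normalization (PLG, 0.43, adjusted p = 0.0347) and 3 without control arrays 1 and 2. Leaving out 1 array at a time gave 0 to 1, the call being SERPINA1 without control array 5 (0.45, adjusted p = 0.0447). Over all probes, the 209 calls became 48 with no detection filter, 43 with adjoining arrays as a random block (correlation 0.313), 79 with the methods' t-test and 98 to 276 with 1 array left out, the fewest without siTRPC1 array 4. Median centring gave 144, with 128 higher and 16 lower where quantile normalization gave 124 and 85. The methods' t-test put 2026 of all probes (15.7%) and 10 of the 54 (18.5%) at p of 0.05 or less, and 79 and 0 after Benjamini-Hochberg. With limma, the 10 arrays the study analysed gave 171 and 0. The 1 call among other pathway genes, TTR, became 0 with the adjoining block and with median centring, and 0 to 1 with 1 array left out (0 without control array 1). Same-numbered arrays did not deviate together (correlations of -0.07 to 0.03), which gives no sign of pairing by number. Whether samples of the same number were handled together is not stated in the labels. With the replicate block 214 probes and 0 plasma protein probes were called. The directions of the 6 largest differences on either side, and of the other probes at an unadjusted p under 0.05, held in every alternative in which they were tested. Smaller differences turned: without control arrays 1 and 2 those of HP (0.33), PROS1 (0.12), F12 (0.04), 1 FGG probe (0.07) and 2 MASP1 probes (0.08 and -0.08), with array weights those of HP (0.13) and PROS1 (0.05) and the same MASP1 probes (0.03 and -0.02), with median centring those of HP (0.06), PROS1 (0.01) and C1S (0.08), 1 MASP1 probe (0.06) and 1 FGL1 probe (0.09), and with the study's 10 arrays those of 1 FGB probe (-0.05) and that FGL1 probe (0.01). At an unadjusted p under 0.05 the 54 probes gave 11 higher and 2 lower with all arrays, 6 and 1 (11.1% and 1.85%, against 6.49% and 4.99% of all probes) with the adjoining block, and 18 and 3 of 53 (34% and 5.66%, against 8.23% and 7.31%) without control arrays 1 and 2. With median centring they gave 12 and 1 (22.2% and 1.85%), where all probes gave 14% and 2.8%. The median difference of all probes was then 0.0605, against -0.00445 in the main values, and the differences listed as turned there were 0.01 to 0.09. SERPINF1, near 0 in the main values, was at 0.251 without control arrays 1 and 2, 0.125 with array weights and 0.083 with median centring. TRPC1 kept its direction and did not pass in any alternative. The count of detected genes was 41 to 45 under other detection rules. The median difference of the 54 probes was 0.041 to 0.111 with 1 array left out and 0.121 without control arrays 1 and 2. The causes were not tested. Signal near background limits HABP2, HAMP and SERPINA10, the last of which was untested in some alternatives. It also limits the dim probes of undetected genes, for which no difference was estimated.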
